A study of Mus musculus with 16 samples.

Results

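The MS4A family (membrane-spanning 4-domains subfamily A) was followed here through 7 members that myeloid cells express: Ms4a4a, Ms4a4b, Ms4a4c, Ms4a6b, Ms4a6c, Ms4a6d and Ms4a7. The members were chosen by gene name, 7 of the 54532 genes in the deposited tables. Ms4a4a and Ms4a7 were picked because they had been lower in macrophages grown on fibronectin, in a rule that names no antibody, so their coating values are a description under either antibody and carry no test. The 16 libraries came from bone marrow macrophages of wild-type C57BL/6J mice aged 2 to 3 months, expanded with CSF-1, the growth factor that keeps these cells alive. For all of them CSF-1 was given at 12 ng/ml for 24 h and then at 120 ng/ml for 48 h, and serum at 15%. All 4 groups were replated once, on uncoated dishes or on dishes coated with fibronectin at 10 µg/ml, and all received an antibody at 10 µg/ml for 24 h, either control IgG or an antibody that neutralizes ITGAV, the integrin alpha V chain. Each of the groups (uncoated with IgG, uncoated with anti-ITGAV, fibronectin with IgG, fibronectin with anti-ITGAV) held 4 libraries. No group lacked an antibody, and the labels do not say whether the 4 libraries of a group came from different animals or dishes, and the p-values given here reflect variation among libraries that may be technical only.

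MS4A proteins cross the membrane several times, and their genes lie side by side in a single cluster. The best known are MS4A1, the B cell antigen CD20, and MS4A2, the beta chain of the high-affinity IgE receptor of mast cells and basophils. MS4A4A is a surface protein of macrophages that associates with the beta-glucan receptor Dectin-1 in lipid rafts, MS4A7 marks tissue macrophages, and the mouse Ms4a6 genes are relatives of human MS4A6A, a myeloid gene. Integrins with the alpha V chain bind fibronectin, vitronectin and other matrix proteins.

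In the mm10 (GRCm38.p6) coordinates of the deposited tables, all members are protein-coding genes on chromosome 19. Ms4a7 lies at 11321039 to 11336146 on the minus strand. It is followed by Ms4a4a at 11375523 to 11392790, Ms4a4c at 11404770 to 11427246, Ms4a4b at 11443553 to 11463549, Ms4a6c at 11469366 to 11482192 and Ms4a6b at 11516512 to 11531256, all on the plus strand. Ms4a6d lies at 11586604 to 11604849 on the minus strand. The coding sequences of the most alike pair, Ms4a4b and Ms4a4c, were 91.7% identical over aligned bases of the annotated transcripts, against 86.4% for Ms4a6b and Ms4a6c, 81.8% for Ms4a6b and Ms4a6d and 79.6% for Ms4a6c and Ms4a6d. Ms4a4a was at most 69.9% identical to any other member. No stretch of 50 bases in the longest coding transcript of Ms4a4a or Ms4a7 occurred in a transcript of another gene. The share of such stretches was 4.19% for Ms4a4b, 8.48% for Ms4a4c, 5.89% for Ms4a6b and 2.92% for Ms4a6d, most of them shared with other members. Ms4a6c is the least certain: 53.1% of its exon bases are overlapped on the opposite strand by BE692007, and as the strand setting of the counting is not given in the sources used here, reads of that pair cannot be told apart.

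The RefSeq promoter table (GRCm38.p6) held 6 of the 7 members (all but Ms4a6d), as 300 bases from 250 before to 50 after the RefSeq transcription start. That start lay inside the deposited gene for Ms4a6b and Ms4a4c, 2047 and 2891 bases from the deposited gene start. For the remaining members the distance was at most 35 bases. Of 2 promoters listed for Ms4a7, the nearest to the deposited gene start was used. The 4 promoters below belong to the members called lower on fibronectin under IgG, and they show which of them share sequence. Capitals mark matches, on either strand, to any of 8 motifs searched. These were GGAAG (ETS core), AGGAAGT (PU.1 core, which contains GGAAG), GAAANNGAA (IRF), TGCTGA (MAF half-site), TGANTCA (AP-1), TTGCNNAA (C/EBP), TTCNNNGAA (STAT) and CACGTG (E-box). Ms4a4a is at chr19:11375238-11375537 on the plus strand, Ms4a7 at chr19:11336097-11336396 on the minus strand, Ms4a6b at chr19:11518309-11518608 and Ms4a6c at chr19:11469118-11469417, both on the plus strand.
Ms4a4a: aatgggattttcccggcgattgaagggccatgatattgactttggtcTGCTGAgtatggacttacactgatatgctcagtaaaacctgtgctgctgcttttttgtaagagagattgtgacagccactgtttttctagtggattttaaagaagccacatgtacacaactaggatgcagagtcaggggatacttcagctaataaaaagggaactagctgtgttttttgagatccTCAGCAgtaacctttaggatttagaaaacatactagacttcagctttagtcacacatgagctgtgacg
Ms4a7: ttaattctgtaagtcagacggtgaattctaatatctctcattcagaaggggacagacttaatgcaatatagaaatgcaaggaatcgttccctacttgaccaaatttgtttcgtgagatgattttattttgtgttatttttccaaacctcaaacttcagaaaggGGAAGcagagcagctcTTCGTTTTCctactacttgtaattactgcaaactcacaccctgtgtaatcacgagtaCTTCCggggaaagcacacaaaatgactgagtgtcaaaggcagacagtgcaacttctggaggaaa
Ms4a6b: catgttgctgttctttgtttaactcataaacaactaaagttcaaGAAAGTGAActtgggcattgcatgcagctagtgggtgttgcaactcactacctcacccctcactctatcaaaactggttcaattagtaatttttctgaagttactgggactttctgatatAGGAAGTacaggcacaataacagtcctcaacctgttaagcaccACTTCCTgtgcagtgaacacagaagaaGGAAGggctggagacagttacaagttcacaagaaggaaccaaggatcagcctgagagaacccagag
Ms4a6c: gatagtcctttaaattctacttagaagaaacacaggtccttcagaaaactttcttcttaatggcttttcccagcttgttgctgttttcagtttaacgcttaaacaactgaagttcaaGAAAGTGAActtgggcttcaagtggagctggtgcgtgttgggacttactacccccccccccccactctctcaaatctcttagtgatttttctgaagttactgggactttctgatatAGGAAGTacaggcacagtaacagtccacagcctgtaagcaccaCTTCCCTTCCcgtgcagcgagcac
The Ms4a6b and Ms4a6c windows were 85.3% identical over 225 aligned bases and shared an unbroken run of 48 bases that holds AGGAAGT. Ms4a4b and Ms4a4c, not printed, were 81.9% identical over 281 bases. No other pair of member promoters passed 66.8%, and Ms4a4a and Ms4a7 shared no run longer than 7 bases. AGGAAGT was in 2 of the 6 member windows (Ms4a6b and Ms4a6c) and in 9.27% of all 32544 promoters of the same length. GAAANNGAA was in 3 (Ms4a6b, Ms4a6c and Ms4a7) against 8.53%, GGAAG in 5 against 71.3%, TGCTGA in 1 (Ms4a4a) against 19.5% and TGANTCA in 1 (Ms4a4b) against 7.79%. TTGCNNAA, TTCNNNGAA and CACGTG were in 0, against 10.8%, 8.33% and 7.17%. A match is a run of letters, not a bound site, and the expression data do not test it.

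Depth was 27995035 to 43413650 counts per library, and 15469 genes were tested. A count of 3 in a library corresponds to 0.0691 to 0.107 CPM (counts scaled to a common library total, so that levels compare between libraries), and every member was above that in every library. Such a floor covers counting error only. All 10 macrophage markers examined were detected in each group, with a summed level of 26867 to 34812 CPM. The third library of fibronectin with anti-ITGAV stood apart: its mitochondrial share of counts was 3.67%, where the remaining 15 had 1.30% to 1.60%, and across all genes its deviation from its group mean followed the genes' GC content with a Spearman rho of -0.70. All 7 members were above their group mean there, and results that rest on it are given with and without it. Bulk values cannot tell fewer cells of a type from less RNA per cell.

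The authors' FPKM are fragments scaled by the deposited gene length and the library total. That length was 836 bases for Ms4a4a, 4485 for Ms4a6b and 4453 for Ms4a7. Their longest coding transcripts were 836, 2680 and 1576 bases, so the order of members depends on the length used. By this measure Ms4a6d was the highest member in each group. Its level was 169 ± 0.965 FPKM (SD, n = 4) on uncoated dishes with IgG, where the 4 libraries ranged from 168 to 170.4. Ms4a4a came next there, at 68.1 ± 13.6 FPKM (SD, n = 4), but its libraries overlapped those of Ms4a6c at 53.0 FPKM, which overlapped those of Ms4a6b at 52.5 FPKM and in turn Ms4a7 at 44.0 FPKM. Ms4a4c at 10.8 FPKM and Ms4a4b at 0.708 FPKM were lower than every other member in all 4 libraries. On fibronectin with IgG the order differed at a single place: Ms4a4a, at 25.5 ± 5.31 FPKM (SD, n = 4), came after Ms4a6d (136 FPKM), Ms4a6c (34.6 FPKM), Ms4a6b (33.0 FPKM) and Ms4a7 (27.4 FPKM). Its libraries still overlapped those of Ms4a7. With anti-ITGAV the order was the same on each surface.

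**Figure D1:**
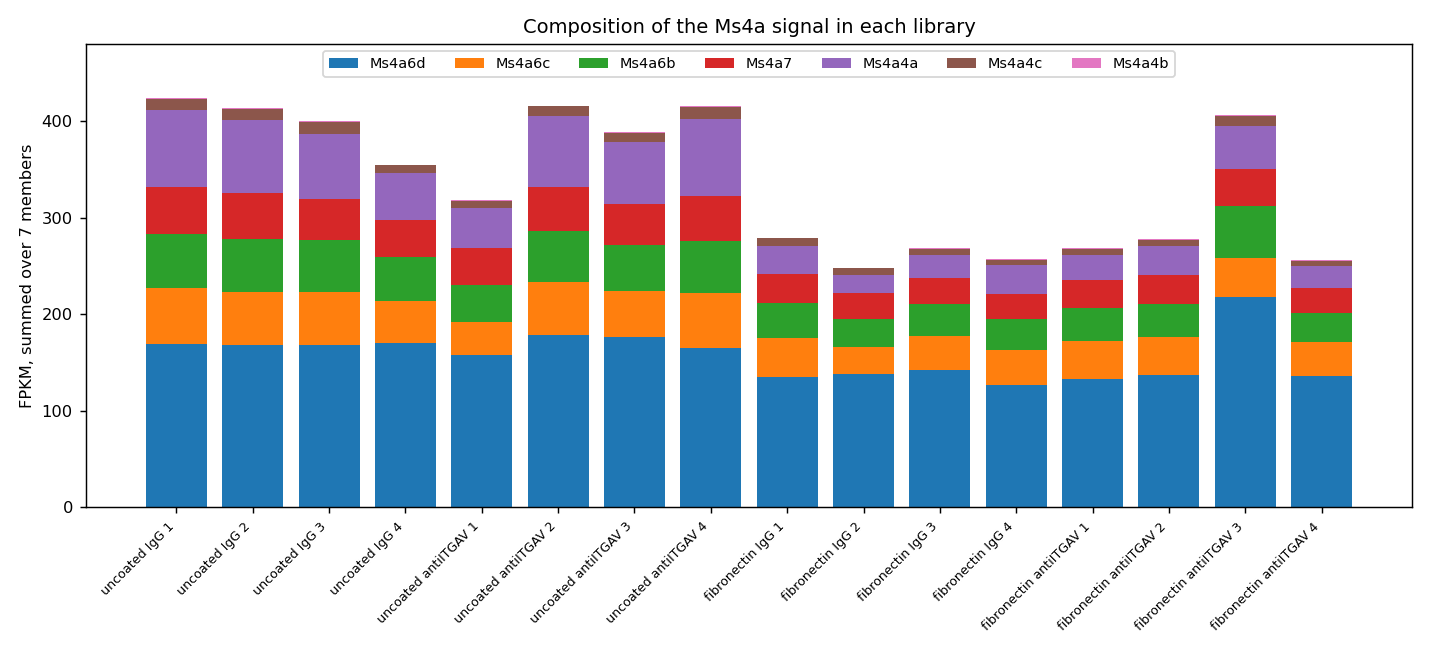
FPKM of the 7 members stacked for each of the 16 libraries, which are named on the horizontal axis by group and number. The sum lies between 247.9 and 279 in the fibronectin IgG libraries and between 355 and 424 in the uncoated IgG libraries, and the Ms4a4a band narrows more than the Ms4a6d band.

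The make-up of the family differed between the coatings in these libraries. Summed over the 7 members, the signal was 355 to 424 FPKM in the uncoated IgG libraries and 247.9 to 279 FPKM in the fibronectin IgG libraries. With anti-ITGAV it was 318 to 416 FPKM on uncoated dishes and 256 to 406 FPKM on fibronectin, the highest being the third library. Ms4a4a supplied 13.9% to 18.9% of this sum on uncoated dishes with IgG and 7.58% to 11.8% on fibronectin with IgG. With anti-ITGAV its share was 13.1% to 19.3% on uncoated dishes and 8.81% to 11.1% on fibronectin, so the shares did not overlap between the coatings under either antibody, the third library included. Ms4a6d supplied 39.7% to 49.4% in the 4 uncoated anti-ITGAV libraries and 49.3% to 53.6% in the fibronectin anti-ITGAV libraries, which overlap. Under IgG it supplied 39.8% to 48.0% and 48.4% to 55.6%, without overlap. The shares of Ms4a6b (11.8% to 13.2% on fibronectin with anti-ITGAV against 12.1% to 12.9% on uncoated dishes) overlapped throughout. These shares were not tested and depend on the gene lengths used, and the values of Ms4a4a and Ms4a7 may be part of why these genes were picked.

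Ms4a4a, the Dectin-1 partner, differed the most between the coatings. On uncoated dishes with IgG its 4 libraries held 67.5, 64.0, 56.8 and 42.0 CPM, and on fibronectin with IgG 25.0, 15.9, 20.3 and 26.0 CPM. With anti-ITGAV it held 35.8, 61.9, 54.9 and 67.6 CPM on uncoated dishes and 21.8, 25.2, 37.8 and 19.1 CPM on fibronectin. The groups did not overlap under IgG, and under anti-ITGAV the only crossing was between the lowest uncoated library (35.8) and the third fibronectin library (37.8). The fitted log2 change under IgG was -1.40 ± 0.23 (SE), a level 2.64-fold lower. Under anti-ITGAV it was -1.08 ± 0.23 (SE), a level 2.12-fold lower. Both values come from the fit over all 16 libraries, and the rule that picked Ms4a4a may have used either antibody.

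Ms4a7, the tissue macrophage marker, had a smaller change than Ms4a4a but was the only member whose coatings did not overlap under either antibody. Its libraries held 218, 211, 190.0 and 173 CPM on uncoated dishes with IgG, and 136, 121, 123 and 118 CPM on fibronectin with IgG. With anti-ITGAV they held 172, 202, 193 and 210.2 CPM on uncoated dishes and 134, 136, 169 and 119.6 CPM on fibronectin. Every fibronectin library was below every uncoated library under each antibody, the third library (169) coming closest. The log2 change was -0.67 ± 0.11 (SE) under IgG. Under anti-ITGAV it was -0.48 ± 0.11 (SE), a level 1.39-fold lower.

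**Figure D2:**
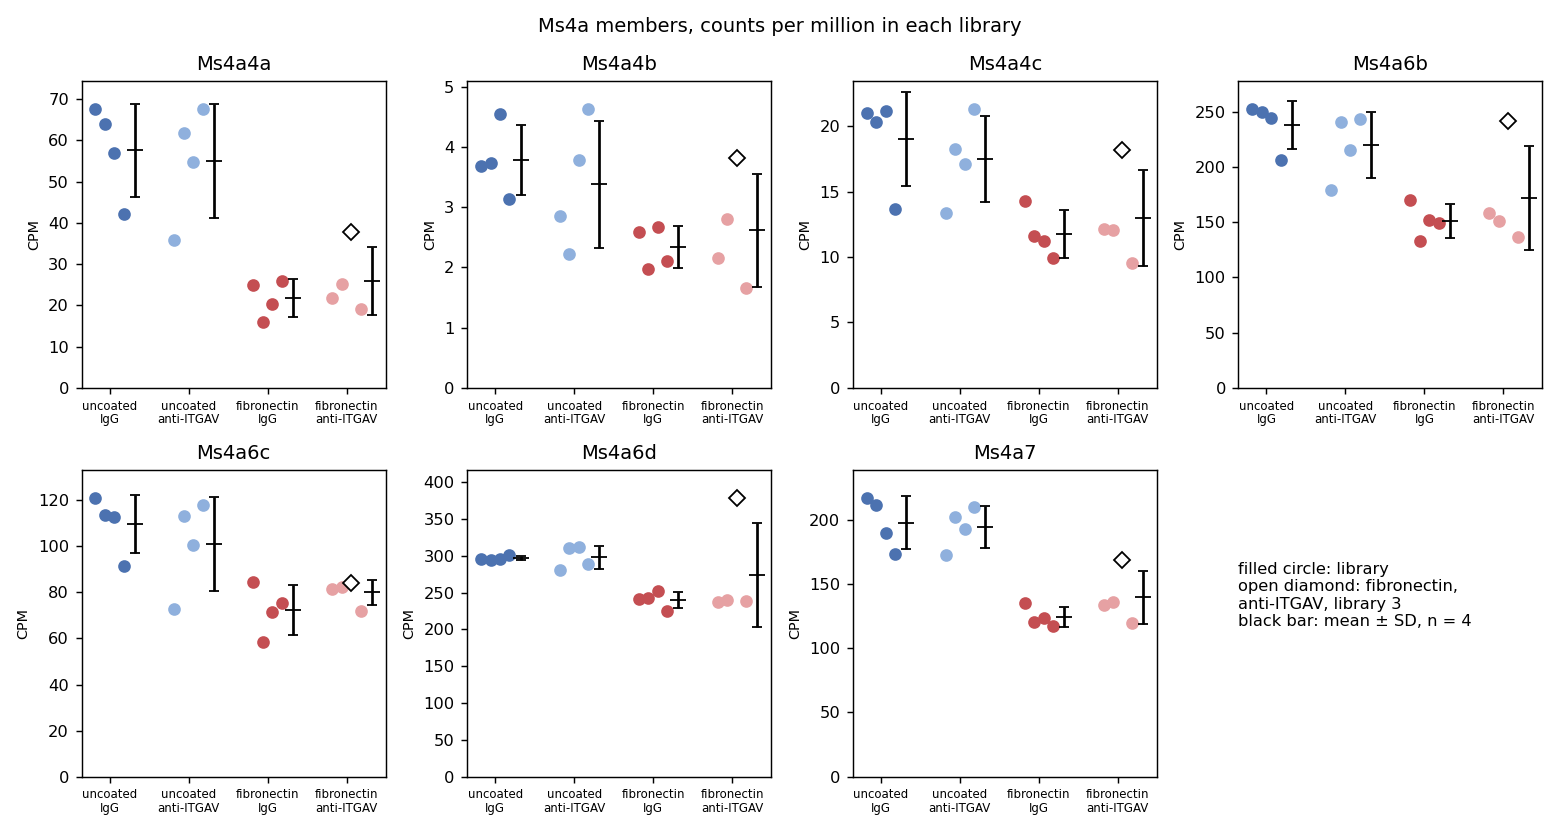
CPM of each member in each library (vertical axes start at 0), by coating and antibody on the horizontal axis, with the mean and SD of each group as a black bar. The open diamond is the third library of fibronectin with anti-ITGAV, which lies above the other 3 of its group for all members, at 379 CPM against at most 239.9 CPM for Ms4a6d and at 84.0 CPM against at most 82.3 CPM for Ms4a6c.

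The means of the Ms4a6 genes were lower on fibronectin by unequal amounts. Ms4a6b held 252, 249.8, 244 and 206 CPM in the uncoated IgG libraries and 170.0, 133, 152 and 149 CPM in the fibronectin IgG libraries, without overlap. Its anti-ITGAV libraries held 179, 241, 216 and 243 CPM uncoated and 158, 151, 241 and 137 CPM on fibronectin. Here the third fibronectin library was as high as the uncoated ones, while the other 3 lay below all of them. The log2 change of Ms4a6b was -0.66 ± 0.15 (SE) under IgG and -0.35 ± 0.15 (SE) under anti-ITGAV, where it missed the threshold (edgeR's quasi-likelihood test with Benjamini-Hochberg adjustment over all genes, adjusted p = 0.180) but passed it without the third library (edgeR adjusted p = 0.00437, log2 change -0.56).

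Ms4a6c held 121, 114, 113 and 91.6 CPM uncoated with IgG, and 84.5, 58.4, 71.6 and 75.5 CPM on fibronectin with IgG. Its anti-ITGAV libraries held 72.6, 113, 100.5 and 118 CPM uncoated and 81.5, 82.3, 84.0 and 72.1 CPM on fibronectin, where the first uncoated library lay among the fibronectin ones. The log2 change was -0.60 ± 0.14 (SE) under IgG and -0.34 ± 0.14 (SE) under anti-ITGAV (edgeR adjusted p = 0.174). Without the third fibronectin library the latter was -0.36 (edgeR adjusted p = 0.211). Without the first uncoated anti-ITGAV library it was -0.47 (edgeR adjusted p = 0.0477), the only library whose removal gave a call. The overlapping BE692007 held 35.5 ± 7.71 CPM uncoated with IgG and 22.3 ± 6.72 CPM on fibronectin with IgG (SD, n = 4). Its log2 change was -0.67 ± 0.28 (SE) under IgG and -0.02 ± 0.27 (SE) under anti-ITGAV, and it was called in neither.

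Ms4a6d, the most abundant member, differed least between the coatings. It held 296, 295, 295 and 302 CPM in the uncoated IgG libraries and 241, 242, 252 and 225 CPM in the fibronectin IgG libraries. Its anti-ITGAV libraries held 280.1, 311, 311 and 289 CPM uncoated and 237, 239.9, 379 and 239 CPM on fibronectin. All but the third library of the last group were below every uncoated library, and that library was the highest of the 16. The log2 change was -0.31 ± 0.12 (SE) under IgG and -0.12 ± 0.12 (SE) under anti-ITGAV (edgeR adjusted p = 0.573). Without the third library the latter was -0.32 (edgeR adjusted p = 0.00396).

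The close pair Ms4a4b and Ms4a4c had fewer reads. Ms4a4c, which is often counted among interferon-stimulated genes, held 13.7 to 21.2 CPM uncoated with IgG and 9.91 to 14.3 CPM on fibronectin with IgG, and its change on the log2 scale was -0.70 ± 0.20 (SE). With anti-ITGAV it held 13.3 to 21.3 CPM uncoated and 9.54 to 18.2 CPM on fibronectin, where its change was -0.43 ± 0.20 (SE) with an adjusted p of 0.207 by edgeR. Without the third library it was -0.64 (edgeR adjusted p = 0.0378). Ms4a4b, better known from T cells, held 3.14 to 4.55 CPM against 1.97 to 2.66 CPM under IgG, and 2.23 to 4.63 CPM against 1.66 to 3.82 CPM under anti-ITGAV. Its log2 changes were -0.69 ± 0.26 (SE) and -0.37 ± 0.25 (SE, edgeR adjusted p = 0.403). The latter was -0.18 without uncoated anti-ITGAV library 4, -0.21 without fibronectin anti-ITGAV library 4 and -0.61 without the third library, and it was called in none of these. Each rests on 48 to 169 counts of Ms4a4b per library.

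In the comparison of coatings under IgG, which may have served to pick Ms4a4a and Ms4a7, 4 of 7 (Ms4a4a, Ms4a7, Ms4a6b and Ms4a6c) were called lower, meaning an adjusted p under 0.05, while 1.42% of all tested genes were. The libraries of 6 members did not overlap, all but Ms4a4c, against 5.26% of all genes lower without overlap. The median change of the 7 was -0.67 and that of all genes 0.00. Ms4a4a and Ms4a7 may have been picked for this fall, so their calls are a description and not a test. Of the 5 other members edgeR called 2 and DESeq2 3, with a median change of -0.66. When uncoated IgG library 1, 2 or 3, or fibronectin IgG library 2, 3 or 4, was left out, Ms4a6b and Ms4a6c were no longer called and 2 members remained, Ms4a4a and Ms4a7. Nothing further is read from these counts.

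In the anti-ITGAV libraries 2 of 7 members were called lower, Ms4a4a and Ms4a7, while 2.83% of all genes were. Both are the members picked for being lower on fibronectin, so nothing is read from that count. Of the 5 members that were not, edgeR called 0, DESeq2 called 0, and 3 had an unadjusted edgeR p under 0.05. Their estimates were all negative, with a median of -0.35 where the median of all genes was 0.01. The libraries of 1 member, Ms4a7, did not overlap, against 7.53% of all genes lower without overlap. Without the third fibronectin library, 3 of the 5 were called (Ms4a4c, Ms4a6b and Ms4a6d), with an offset for each library's GC trend 4 (all but Ms4a6d), without the first uncoated library 1 (Ms4a6c), and in the 8 libraries fitted alone 0. Ms4a4a and Ms4a7 were not called in the 8 libraries alone, and Ms4a7 was not called without uncoated anti-ITGAV library 2 or fibronectin anti-ITGAV library 4. Whether GC content of the third library has a part in the smaller changes was not tested.

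**Figure D3:**
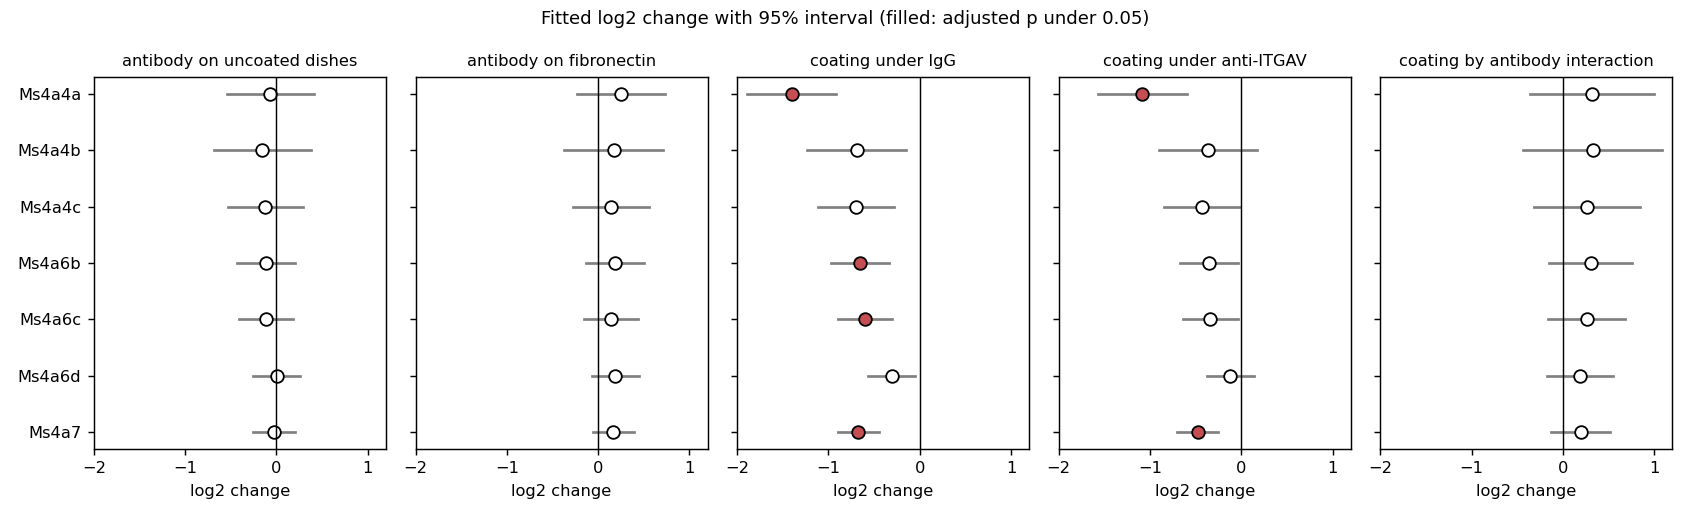
Fitted log2 change of each member (horizontal axes) with its 95% interval in the 5 comparisons, from edgeR over all 16 libraries; filled points have an adjusted p under 0.05. All points lie left of 0 in the coating panels, with Ms4a4a farthest at -1.40 and -1.08, while the intervals of the antibody and interaction panels all include 0. Ms4a4a and Ms4a7 were picked for being lower on fibronectin, so their filled points in the coating panels are a description.

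No member was called changed by the neutralization of ITGAV. On uncoated dishes 0 of 7 were called, against 0.0129% of all genes (2 genes), with 0 at an unadjusted p under 0.05, 0 by DESeq2 and 0 without overlap between the libraries (3.15% of all genes had none). The log2 changes ran from -0.15 for Ms4a4b to 0.01 for Ms4a6d, and edgeR's adjusted p was at least 0.988. The narrowest interval was that of Ms4a7, from -0.25 to 0.20, and the widest that of Ms4a4b, from -0.68 to 0.37. The Ms4a4a interval ran from -0.54 to 0.41, so changes of that size in either direction are not excluded. The signs of these estimates depended on the processing, 6 of 7 being negative here and 0 of 7 with the GC offset.

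On fibronectin 0 of 7 were called as well, against 0.0129% of all genes (2 genes), with 0 at an unadjusted p under 0.05, 0 by DESeq2 and 0 without overlap (2.42% of all genes had none). The 7 estimates lay between 0.14 for Ms4a6c and 0.25 for Ms4a4a, with edgeR adjusted p from 0.721 to 0.820. Without the third library 4 of the 7 were below 0, Ms4a4b at -0.07, Ms4a4c at -0.06, Ms4a6b at -0.02 and Ms4a6d at -0.01, and with the GC offset 5 were. The interaction, which asks whether the antibody effect differs with the coating, was called for 0 members and 0% of all genes. The edgeR adjusted p of the members ran from 0.646 to 0.700, with 0 at an unadjusted p under 0.05 and 0 by DESeq2. Of all genes, DESeq2 called 1, and for 614 the unadjusted edgeR p was under 0.05. The estimates of the members ran from 0.18 to 0.32, and that of Ms4a6d became -0.01 without the third library. With the GC offset 6 of the 7 were negative. The unequal counts of called members under IgG and under anti-ITGAV are therefore not shown to be a difference between the antibodies.

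Apart from the group differences, the deviations of several members from their group means went together from library to library. For each of the 21 pairs, log2 CPM deviations from the group mean were correlated over the 16 libraries, with 100000 permutations of libraries within groups and Benjamini-Hochberg adjustment over the 21 pairs. Pearson's r ran from 0.16 to 0.94 with a median of 0.70, Spearman's rho from 0.08 to 0.91 with a median of 0.65, and 11 pairs passed an adjusted permutation p of 0.05 on each measure. The share of other gene pairs that would pass was not computed, so this count is not shown to be particular to the family. Genes outside it, picked for their likeness to a member, also reached a high r within groups. It was 0.94 for Ms4a4a with Serinc3 and 0.97 for Ms4a6b with Clec4a3. Ms4a4c with Ms4a7 had the highest r, 0.94 (rho 0.85, adjusted permutation p = 0.000577 and 0.00181), and r was 0.99 without the 2 libraries farthest from the median of Ms4a4c. Ms4a4a with Ms4a7 had an r of 0.86 (rho 0.76, adjusted permutation p = 0.000971 and 0.00912), and r was 0.88 without the 2 farthest libraries. Ms4a6b with Ms4a6c, the pair with the shared promoter run, had an r of 0.71 and a rho of 0.89 (adjusted permutation p = 0.000577 and 0.0007), and r was 0.67 without the 2 farthest.

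Ms4a6d was in none of the 11 pairs. Its r with the other members ran from 0.16 (Ms4a6c) to 0.77 (Ms4a6b), and that with Ms4a7 went from 0.66 to 0.09 without the 2 libraries farthest from the median of Ms4a6d, 1 of which is the third fibronectin anti-ITGAV library. Without that library alone, 10 of 21 pairs passed, and the r of Ms4a6b with Ms4a6d was 0.22. The GC trend of a library went with the members' deviations in some libraries and not in others, and this was not tested. Uncoated IgG 1, 2 and 3 (rho -0.14, -0.20 and -0.30) had 5 members above the group mean each. Uncoated anti-ITGAV 4 (-0.23) had 6 above and fibronectin IgG 1 (-0.29) had 7. Fibronectin anti-ITGAV 2 (0.27) had 3 above and uncoated anti-ITGAV 2 (0.20) had 6. The third fibronectin anti-ITGAV library (rho -0.70) had 7 of 7 members above the group mean, and fibronectin IgG 2 (0.55), uncoated anti-ITGAV 1 (0.51) and uncoated IgG 4 (0.40) had 1, 0 and 1 above. However, uncoated anti-ITGAV 3 and fibronectin IgG 3, each with a rho of 0.39, had 4 and 3 above, and fibronectin IgG 4 (-0.25), fibronectin anti-ITGAV 1 (-0.19) and fibronectin anti-ITGAV 4 (0.04) had 2, 1 and 0. After the GC trend of each library was removed, 4 pairs passed and the median r was 0.48. The r of Ms4a4a with Ms4a7 was then -0.01 and with Ms4a6b 0.08. Over its 6 pairs the r of Ms4a4a ran from -0.07 to 0.31, none passing. Ms4a6b with Ms4a6d, on the other hand, then passed with an r of 0.85 (rho 0.85, adjusted permutation p = 0.0133).

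**Figure D4:**
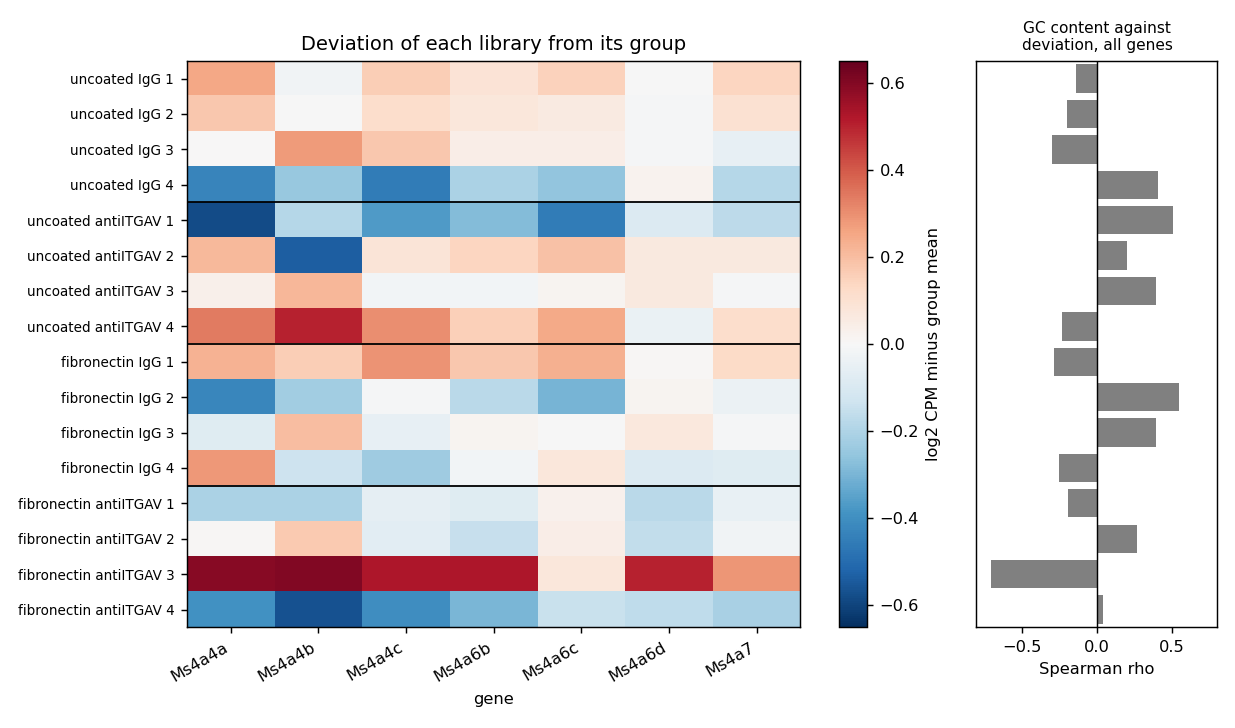
Left: log2 CPM of each member (columns) minus its group mean, for each library (rows), in blue where lower and red where higher. Right: Spearman rho between GC content and the same deviation over all genes. The third fibronectin anti-ITGAV library is above its group for all 7 members and has a GC rho of -0.70.

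Genes with levels most like those of each member were ranked by Pearson's r of log2 CPM over the 16 libraries among protein-coding genes with a mean of at least 10 CPM. This likeness holds the coating difference, GC trend and library effects together and is a description. Ms4a4a was most like Serinc3 (r = 0.98), Ms4a7 (0.97), Ednrb (0.96), Fcgr2b (0.96), the inhibitory Fc gamma receptor, and Fchsd2 (0.96). For Ms4a7 the list was Serinc3 (0.98), Ms4a4a (0.97), Fcgr2b (0.97), Pdgfc (0.97) and N4bp2l1 (0.96). Ms4a6b was most like Clec4a3 (0.98), a C-type lectin receptor, Mgst1 (0.96) and Serinc3 (0.96), and Ms4a6c most like Abca9 (0.97), Pip4k2a (0.97) and Ednrb (0.96). Ms4a6d was most like Atg12 (0.96), Cyp4v3 (0.96) and Soat1 (0.95). Ms4a4c was most like Ms4a6b (0.95), Fgl2 (0.94) and Socs6 (0.93), and Ms4a4b most like Ms4a4c (0.84), Stk38 (0.83) and Sat1 (0.82).

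Of the 19 genes named Ms4a in the tables, 12 were beyond the members. No library had a count of Ms4a10, Ms4a12, Ms4a13 or Ms4a18, Ms4a5 had 1 count in all, Ms4a15 had 4 and Ms4a4d had 88, and these were not tested. Of the 5 others, Ms4a14 was the only abundant gene, at 37.9 to 73.2 CPM uncoated with IgG and 22.5 to 44.1 CPM on fibronectin with IgG. Its log2 change was -0.76 ± 0.28 (SE) under IgG and -0.22 ± 0.28 (SE) under anti-ITGAV, and edgeR's adjusted p was 0.171 and 0.672. Ms4a1 (CD20), Ms4a2 (the IgE receptor beta chain), Ms4a3, a gene of myeloid progenitors, and Ms4a8a had group means of 0.240 to 1.51 CPM and were not called. Ms4a8a was the only 1 of the 12 tested Ms4a genes with a positive change under IgG, 0.47 ± 0.52 (SE). On uncoated dishes with anti-ITGAV it stood at 0.612 against 0.240 CPM with IgG, with an unadjusted edgeR p of 0.0180 and an adjusted p of 0.988.

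Tmem176a and Tmem176b, distant relatives of the family that encode ion channels of antigen-presenting cells, lie together on chromosome 6. Tmem176b held 14.4, 14.6, 14.8 and 15.9 CPM uncoated with IgG, and 10.3, 10.5, 9.57 and 6.13 CPM on fibronectin with IgG. With anti-ITGAV it held 16.5, 15.4, 17.1 and 16.8 CPM uncoated and 8.72, 10.7, 9.63 and 8.05 CPM on fibronectin, so the coatings did not overlap under either antibody. Tmem176b fell by 0.71 (SE 0.14, edgeR adjusted p = 0.00933) under IgG and by 0.82 (SE 0.14, edgeR adjusted p = 0.00328) under anti-ITGAV on the log2 scale. Tmem176a fell by 0.98 (SE 0.18, edgeR adjusted p = 0.00407) under anti-ITGAV and stood at -0.53 ± 0.18 (SE, edgeR adjusted p = 0.116) under IgG. The third library was not the highest of its group for Tmem176b but was for Tmem176a, at 4.44 CPM against 2.82 to 3.58 CPM.

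**Figure D5:**
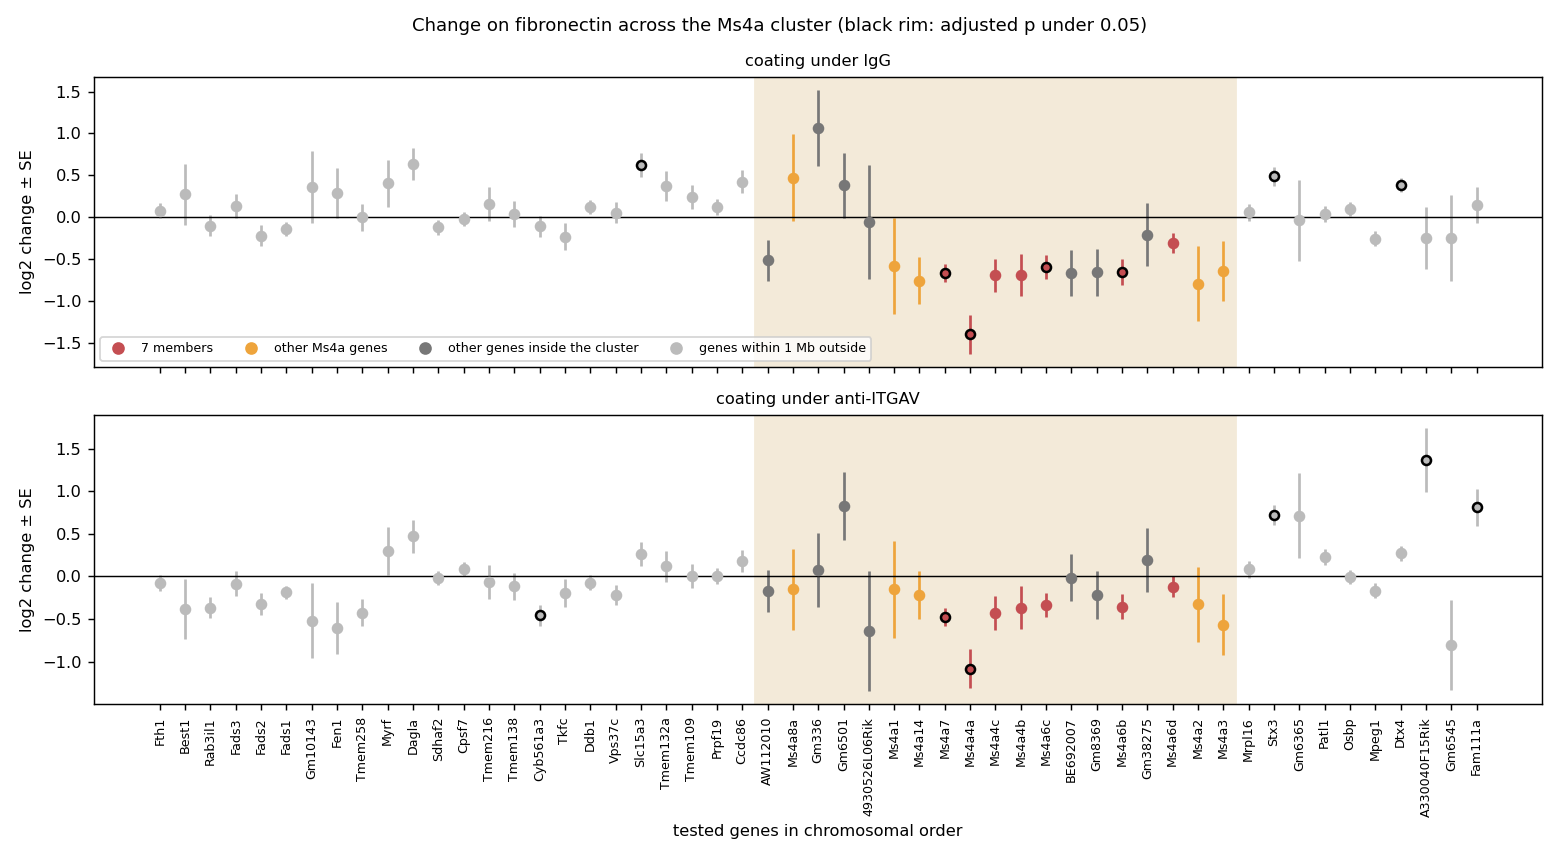
Log2 change on fibronectin with its SE (vertical axes) for the tested genes of the Ms4a cluster (shaded) and 1 Mb to each side, in chromosomal order, under IgG (top) and anti-ITGAV (bottom). Members are red, other Ms4a genes orange and other genes grey, and a black rim marks an adjusted p under 0.05: 4 and 2 Ms4a genes have one, all members, and none of the 7 other genes inside the cluster.

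The neighbours of the family were examined as well. The 19 Ms4a genes span 678.6 kb, from 10962293 to 11640851. Under IgG the 12 tested Ms4a genes had a median log2 change of -0.66, the 7 other tested genes inside the cluster -0.21 with 0 called, and the 34 genes within 1 Mb outside 0.09 with 0 lower and 3 higher. Under anti-ITGAV the medians were -0.35, -0.02 and -0.04, with 2 Ms4a genes lower, 0 of the 7 called, and 1 lower and 3 higher outside. Of all tested genes, 1.42% were called lower under IgG and 2.83% under anti-ITGAV. For the 7 genes, edgeR's unadjusted p was under 0.05 for 2 lower and 1 higher under IgG and 0 under anti-ITGAV, and DESeq2 called 0. For the 34 genes under IgG, 1 was lower and 5 higher at an unadjusted edgeR p under 0.05, and DESeq2 called 1 lower and 5 higher. Under anti-ITGAV 5 were lower and 6 higher at an unadjusted edgeR p under 0.05, and DESeq2 called 2 lower and 4 higher. The difference between these sets was not tested, and 2 of the 12 Ms4a genes, Ms4a4a and Ms4a7, had been picked for being lower. BE692007, which overlaps Ms4a6c, and Gm8369, which lies between Ms4a6c and Ms4a6b, stood at -0.67 ± 0.28 and -0.66 ± 0.28 (SE) under IgG and were not called.

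Of 15 listed partners of MS4A4A, tetraspanins and raft proteins, 1 was called higher and 0 lower by edgeR in each comparison, with a median of -0.04 under IgG and -0.12 under anti-ITGAV. At an unadjusted p under 0.05, 0 were lower under IgG and 3 under anti-ITGAV, and DESeq2 called 0 and 2 lower. The gene that rose was Cd9, a tetraspanin, by 0.56 ± 0.14 (SE, edgeR adjusted p = 0.0298) and 0.63 ± 0.14 (SE, edgeR adjusted p = 0.0128). Under anti-ITGAV, Cd82 at -0.40 ± 0.11 and Syk at -0.32 ± 0.09 narrowly missed the threshold (SE, edgeR adjusted p = 0.0504 and 0.0537). Clec7a, which encodes Dectin-1, stood at -0.20 ± 0.18 (SE) under IgG and 0.30 ± 0.18 (SE) under anti-ITGAV and was called in neither. Over all genes, 367 were higher and 219 lower under IgG, and 439 and 437 under anti-ITGAV.

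Ms4a4a is known to respond to IL-4 and glucocorticoids, and the 18 listed genes of IL-4, IL-10 and glucocorticoid response went in both directions. Under IgG 2 were higher and 2 lower (median -0.22), and under anti-ITGAV 2 and 4 (median -0.14). The shares of all tested genes called lower were 1.42% and 2.83%. Arg1, the arginase of alternatively activated macrophages, rose by 1.38 ± 0.16 and 1.16 ± 0.16 (SE, edgeR adjusted p = 1.3e-04 and 6.4e-04). Fkbp5 rose by 0.46 ± 0.12 and 0.41 ± 0.12 (SE, edgeR adjusted p = 0.0373 and 0.0488). Called lower under anti-ITGAV alone were Mgl2 at -1.10 ± 0.27 and Tsc22d3 at -0.39 ± 0.11 (SE, edgeR adjusted p = 0.0235 and 0.0467). Clec10a, a galactose-binding lectin, fell by 0.73 (SE 0.12) and 0.99 (SE 0.12, edgeR adjusted p = 0.00237 and 2.3e-04), and Il10ra, the IL-10 receptor chain, by 0.45 (SE 0.10) and 0.55 (SE 0.10, edgeR adjusted p = 0.0131 and 0.00304). None of the 20 type I interferon response genes was called by edgeR in either comparison, with medians of -0.04 and -0.02. At an unadjusted p under 0.05, 3 and 1 of them were lower and 0 higher, and DESeq2 called 0.

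Markers of other cells were examined because MS4A genes mark several lineages. Of the 15469 genes tested, edgeR called 219 (1.42%) lower and 367 higher under IgG. Under anti-ITGAV it called 437 (2.83%) lower and 439 higher. Of 6 B cell markers, 1 was lower under IgG and 2 under anti-ITGAV, with a summed level of 60.8 to 77.9 CPM uncoated and 31.0 to 44.9 CPM on fibronectin under IgG, most of it Ighm, and 69.2 to 79.6 and 29.7 to 36.8 CPM under anti-ITGAV. For 7 mast cell and basophil markers the counts were 2 and 1 lower, with sums of 27.7 to 35.0 and 15.2 to 19.3 CPM under IgG, and for 5 fibroblast markers (3 tested) 2 and 1 lower, with sums of 12.0 to 14.8 and 7.32 to 8.38 CPM. Under anti-ITGAV these sums were 20.6 to 27.1 and 10.1 to 13.3 CPM, and 10.4 to 12.4 and 4.90 to 8.05 CPM. Of 10 neutrophil and precursor markers 0 and 6 were lower, with sums of 404 to 425 and 305 to 396 CPM under IgG and 292 to 345 and 196 to 346 CPM under anti-ITGAV. Of 7 monocyte markers 1 (Cx3cr1) was higher in each comparison and 0 and 1 lower. None of 6 dendritic cell markers was called. The 8 T and NK cell markers summed to at most 1.21 CPM in any library, and Ms4a4b held 1.66 to 4.63 CPM. Of the 10 macrophage markers 1, Mertk, a receptor for dying cells, fell by 0.46 and 0.38 on the log2 scale (SE 0.08 in each, edgeR adjusted p = 0.00418 and 0.0121). DESeq2 called 0 of the neutrophil markers under IgG (1 at an unadjusted p under 0.05), 0 of the T and NK cell markers (1 and 0 at an unadjusted p) and 0 of the dendritic cell markers (0 and 1). Without the third library the lower counts under anti-ITGAV were 2 for mast cell and basophil markers, 8 for neutrophil and 0 for monocyte markers, and under IgG 3 for fibroblast markers. No marker listed was at 0 in all libraries. The part that other cells have in the values of the members was not tested.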

How the data were processed

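RNA of 16 macrophage libraries, 4 per group, was sequenced after poly(A) selection. The authors deposited gene counts and FPKM; the submitters' processing notes name HISAT2, StringTie and featureCounts as tools and, as builds, mm10 and GRCm38.p6. Tool versions, roles and any strand setting were not given in the sources used here. Deposited counts were raw whole numbers, and the deposited FPKM were those counts scaled by gene length and 0.989 to 1.04 times the library total.

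Counts were fitted with edgeR 4.0.16 (R 4.3.3; filterByExpr with a minimum count of 10, TMM factors, robust quasi-likelihood test, 1 mean per group over all 16 libraries), with Benjamini-Hochberg adjustment over 15469 genes and a threshold of 0.05. CPM used TMM-scaled totals, log2 CPM a prior count of 2. The fit was tested on simulated data. Members were named in full. Of each list up to 4 genes with the smallest p in a comparison were named, and of similar genes the 3 or 5 highest by correlation. Clec7a and Tsc22d3 were named beyond that rule. The members and lists were chosen with earlier results of these data known. Alternatives were DESeq2 1.42.0, limma 3.58.1, other scalings and filters, a GC offset, a replicate block and leaving out each library. Promoters came from RefSeq (GRCm38.p6) and transcripts from the annotation of the same build.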

Additional observations from a re-analysis of the deposited data

Results flagged for a closer look

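In each group of 4, a library was singled out where its gap to the nearest other, divided by the group's whole range, passed Dixon's critical value of 0.829. Of 64 such tests on Ms4a genes and related or neighbouring genes 7 passed, and chance gives about 1 in 20 for a single test. The tests share libraries and genes that vary together, so they are not independent and nothing is read from the count. Ms4a6d stood at 378.84 CPM in the third library of fibronectin with anti-ITGAV against 237 to 239.9 CPM in the other 3, and at 301.52 CPM in uncoated IgG library 4 against 295 to 296 CPM. Uncoated IgG library 4 was also low for Ms4a4c, at 13.7 CPM against 20.3 to 21.2 CPM, and for BE692007, at 23.936 CPM against 38.7 to 39.9 CPM. Ms4a2 was at 1.5901 CPM in uncoated anti-ITGAV library 4 against 0.745 to 0.794 CPM, Ms4a8a at 0.4206 CPM in uncoated IgG library 2 against 0.177 to 0.184 CPM, and Gm8369 at 4.5405 CPM in uncoated IgG library 1 against 2.55 to 2.86 CPM.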

How the results depend on the processing

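The 2 counts of 0 called members for the antibody and that for the interaction stayed 0 under every alternative run. The count of 4 under IgG was 7 with limma's voom and 2 on log2(FPKM + 1) without a filter, and 2 to 6 when each library was left out. The count of 2 under anti-ITGAV was 0 in its 8 libraries alone, 6 with the GC offset, 6 with the replicate block and GC offset, 6 with voom, and 1 to 5 when each library was left out. The 11 co-varying pairs were 4 with the GC trend removed, an alternative chosen after seeing the data, as was leaving the third library out of the lists. For these changes the cause was not tested.

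Among 998 single-gene values, 886 kept direction and side of the threshold, 19 lost the call, 29 gained it and 64 changed sign. None of those 64 was called: 31 were of the antibody on uncoated dishes, 18 of the antibody on fibronectin and 15 of the interaction. In the following, a pair of values is with the GC offset and with the replicate block and GC offset, and a range is over leaving out each library.

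For the antibody on uncoated dishes, Ms4a4a was 0.046 and 0.041 (range -0.19 to 0.094), Ms4a4b 0.083 and 0.081, Ms4a4c 0.124 and 0.124, Ms4a6b 0.111 and 0.097, Ms4a6c 0.035 and 0.032 (range -0.20 to 0.011), and Ms4a7 0.142 and 0.138 (range -0.085 to 0.027), or 0.0026 with upper-quartile factors. Ms4a6d was -0.0072 in the libraries of the comparison alone, -0.00096 on log2(FPKM + 1), with and without a filter, and -0.00098 on log2(FPKM + 0.1) (range -0.017 to 0.034).

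For the antibody on fibronectin, Ms4a4b was -0.135 and -0.137 (range -0.070 to 0.34), Ms4a4c -0.152 and -0.142 (range -0.062 to 0.27), Ms4a6b -0.082 and -0.076 (range -0.024 to 0.29), Ms4a6c -0.0041 and -0.0086, and Ms4a7 -0.020 and -0.013. Ms4a6d had a range of -0.0075 to 0.265, and with voom Ms4a4a was -0.131, Ms4a4b -0.120, Ms4a4c -0.095 and Ms4a6b -0.091. The interaction of Ms4a4b was -0.218 and -0.218, of Ms4a4c -0.276 and -0.267, of Ms4a6b -0.19 and -0.17, of Ms4a6c -0.039 and -0.041, of Ms4a6d -0.12 and -0.11 (range -0.012 to 0.271), and of Ms4a7 -0.16 and -0.15, and with voom that of Ms4a4a was -0.0024 and that of Ms4a6d -0.015.

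Replicate numbers shared by groups did not pair the libraries: deviations of same-numbered libraries correlated at -0.30 to 0.28, and 5 of 16 libraries correlated best with their own number. With the replicate block the counts of members were 3 under IgG and 2 under anti-ITGAV, and the all-gene counts went from 586 to 360 and from 876 to 600.

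Limits: 4 libraries per group, paralogues and an antisense gene that may share reads, and a coating comparison in which 1 library carries much of the spread. A count of 3 limits detection at 0.0691 to 0.107 CPM.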
